A study of Saccharomyces cerevisiae with 4 samples.

Results

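The small-subunit proteins of the cytosolic ribosome were read by 68 probe sets, beside 9267 other sets on the array. Members are the sets whose annotated symbols are all of the form RPS, a number and an optional A or B. Of these, 47 sets name 1 gene and 21 name both genes of a paralog pair, and the 2 kinds are kept apart. Together they name 55 genes, 33 with a set of their own and 22 through pair sets alone. The names of 48 member sets carry a letter before the ending, as in 8269_f_at, and 20 are unsuffixed. Such a letter can mark probes shared with other genes, and whether suffixed sets of 1 gene also read the paralog was not tested. The data are 4 single-colour Affymetrix arrays of budding yeast (Saccharomyces cerevisiae), 2 of wild type and 2 of a strain whose histone H3 carries arginine at lysines 4, 36 and 79 (H3 K4,36,79R). All cultures were moved from selective galactose medium to selective glucose medium and collected after 9 h at an OD600 of 0.5 to 0.7. By the series text, glucose turned off wild-type H3, so that the mutant form became the cell's H3 source, and how much older H3 remained was not measured. That text calls the RNA sources replicate cultures. Strain background, other alleles and plasmids of both strains are not given in the sources used here.

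The small subunit joins 18S ribosomal RNA with its proteins, binds messenger RNA and checks the pairing of codon and anticodon. Most of its proteins are encoded by a pair of near-identical genes left from a duplication of the yeast genome. Their promoters bind Rap1, Fhl1 and Ifh1, and nutrient signals through TORC1 and protein kinase A set their transcription together with that of the large-subunit genes. The mutated lysines are methylated by Set1, Set2 and Dot1 on transcribed genes, and ribosomal protein genes are among the most heavily transcribed. The comparison asks which of these transcripts had another level in the strain whose H3 carries arginine at these lysines. The arrays do not measure methylation.

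Signals are given after each array was brought to the same median over all sets, and called scaled signals. Tests and log2 changes used log2 of the scaled signal plus 5.71, so that changes of dim sets are understated. The members lay among the brightest sets: 55 of 68 were in the top 5% by mean signal and 46 exceeded 1000, where the median set read 33.3. Together they took 7.22% and 6.82% of all deposited signal on wild-type replicates 1 and 2 and 7.44% and 6.54% on mutant replicates 1 and 2. The array also carries 10 control sets for ribosomal RNA, and each read higher on both mutant arrays than on either wild-type array (median log2 change 1.43), whose part in the results was not tested. The 3 sets for H3 gave log2 changes of -1.84, 0.45 and -0.05 (limma adjusted p = 0.0364, 0.619 and 0.969). Their mean signals were 311.6, 3334 and 6.69, the last near the added 5.71. Whether any of the 3 sets covers a changed codon is not known, so the labels were not checked by them.

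No small-subunit set passed the test of mutant against wild type (limma, Benjamini-Hochberg adjusted p under 0.05 over all sets). Of all sets, 0.118% were called higher and 0.225% lower. Of the 11 sets called higher, 4 were ribosomal RNA control sets. A fit without any control set called 3 sets higher and 20 lower. An unadjusted p under 0.05 was reached by 2 of the 68 member sets, 1 for RPS7A and 1 for RPS27A. That mark was passed by 18.1% of all sets. Among the 334 sets in the brightest 5% that name no RPS or RPL gene, 10 passed it. The smallest adjusted p of a member was 0.123. The median log2 change was 0.001 over the 47 sets of 1 gene and 0.004 over the 21 pair sets, beside 0.024 over all sets. Of the 68 sets 35 lay above 0, where 53.6% of all sets did, and 46 had a change smaller than 0.2 in size. The groups did not overlap in 7 sets with both mutant arrays higher (10.3%, against 26.5% of all sets). In 12 sets both were lower (17.6%, against 24.1% of all sets). Among the bright sets that name no RPS or RPL gene these shares were near those of the members, at 12.6% and 17.7%. By kind, the members without overlap were 6 higher and 5 lower among sets of 1 gene, and 1 higher and 7 lower among pair sets.

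The near-zero medians hide a split between the mutant arrays. Mutant replicate 1 read above the wild-type mean in 53 of 68 sets, with a median log2 difference of 0.22. Mutant replicate 2 read below it in 55 of 68 sets, with a median of -0.23. The wild-type arrays differed by a median of -0.07 (replicate 2 minus replicate 1), and 55 sets differed by less than 0.25 between them. Between the mutant arrays only 14 sets differed by less than 0.25, and replicate 1 was the higher one in 63 of 68. In 34 sets, or 50% of the members, mutant replicate 1 lay above both wild-type arrays and mutant replicate 2 below both, which 14% of all sets did. The median scaled signal of the members was 1282 and 1221 on the wild-type arrays, 1505 in mutant replicate 1 and 1170 in mutant replicate 2. The split was of like size for both kinds of set, with medians of 0.22 and -0.23 for sets of 1 gene and of 0.26 and -0.21 for pair sets.

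**Figure D1:**
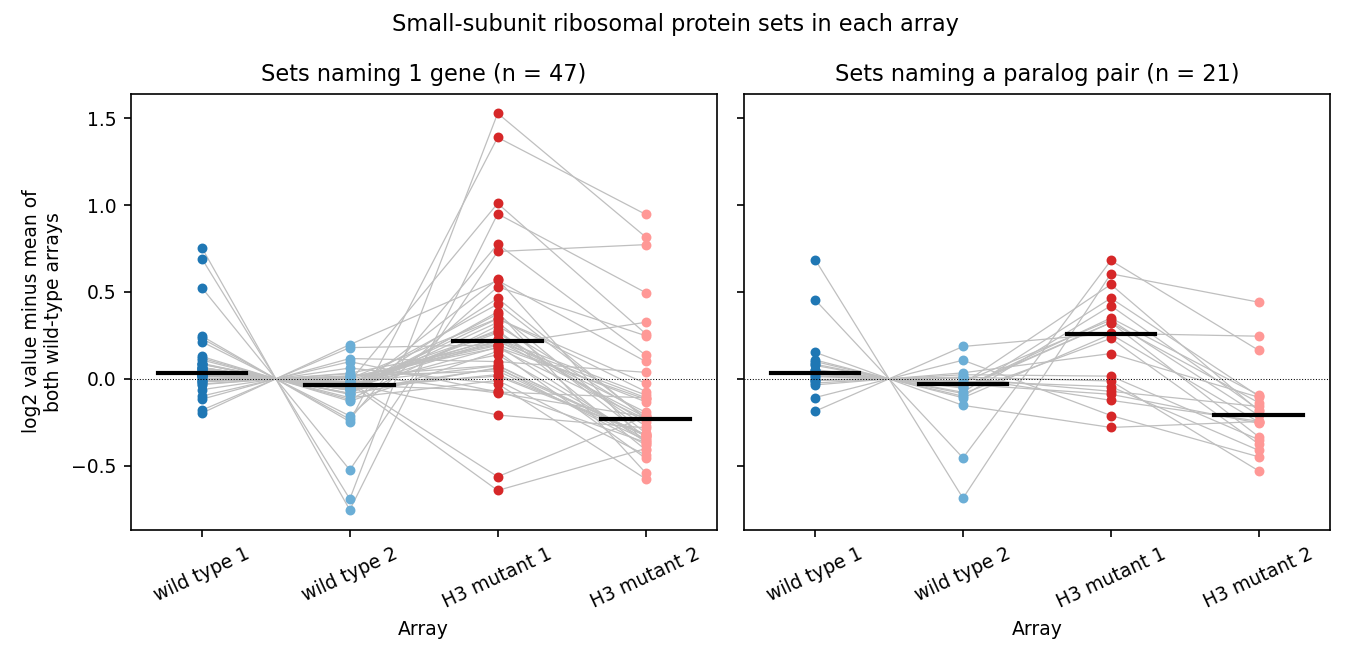
Each point is a small-subunit probe set in 1 array, as its log2 value minus the mean of both wild-type arrays, with grey lines joining the 4 arrays of a set and black bars at the medians. Mutant replicate 1 sits mostly above 0 and mutant replicate 2 mostly below, with medians of 0.22 and -0.23 over all 68 sets.

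The split moved with signal level and was not particular to the small subunit. The 90 sets of large-subunit genes (RPL) had medians of 0.18 in mutant replicate 1 and -0.23 in mutant replicate 2. The 334 sets in the brightest 5% that name no RPS or RPL gene had medians of 0.26 and -0.16, and 46.4% of them had the mutant arrays on opposite sides of both wild-type arrays. Over 20 level bins of all sets, both medians stayed within 0.1 of 0 in the bins from a median signal of 18.3 to 479, and in the top bin they were 0.25 and -0.18. In the dimmer bins from 3.28 to 13.6, mutant replicate 1 lay at 0.11 to 0.14 and mutant replicate 2 at 0 to 0.04. With quantile normalization the member medians became -0.04 in both mutant arrays, and with cyclic loess, which removes differences that depend on level, 0.01 and -0.05. The brightest members showed the split plainly. RPS22A, which encodes the universal protein uS8, read 4385 and 3904 on the wild-type arrays, 6159 in mutant replicate 1 and 3194 in mutant replicate 2. RPS21A (eS21) read 4294 and 3966 on the wild-type arrays and 5017 and 3109 on the mutant arrays, and its paralog RPS21B read 4381 and 3665 on the wild-type arrays and 4473 and 2918 on the mutant arrays. All 3 sets had mutant replicate 1 above both wild-type arrays and mutant replicate 2 below both, and their log2 changes were 0.10, -0.06 and -0.15. RPS26A, whose protein eS26 lines the exit of the mRNA channel, had the same order in its brighter set, with 3766 and 3328 on the wild-type arrays and 4627 and 2433 on the mutant arrays.

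**Figure D2:**
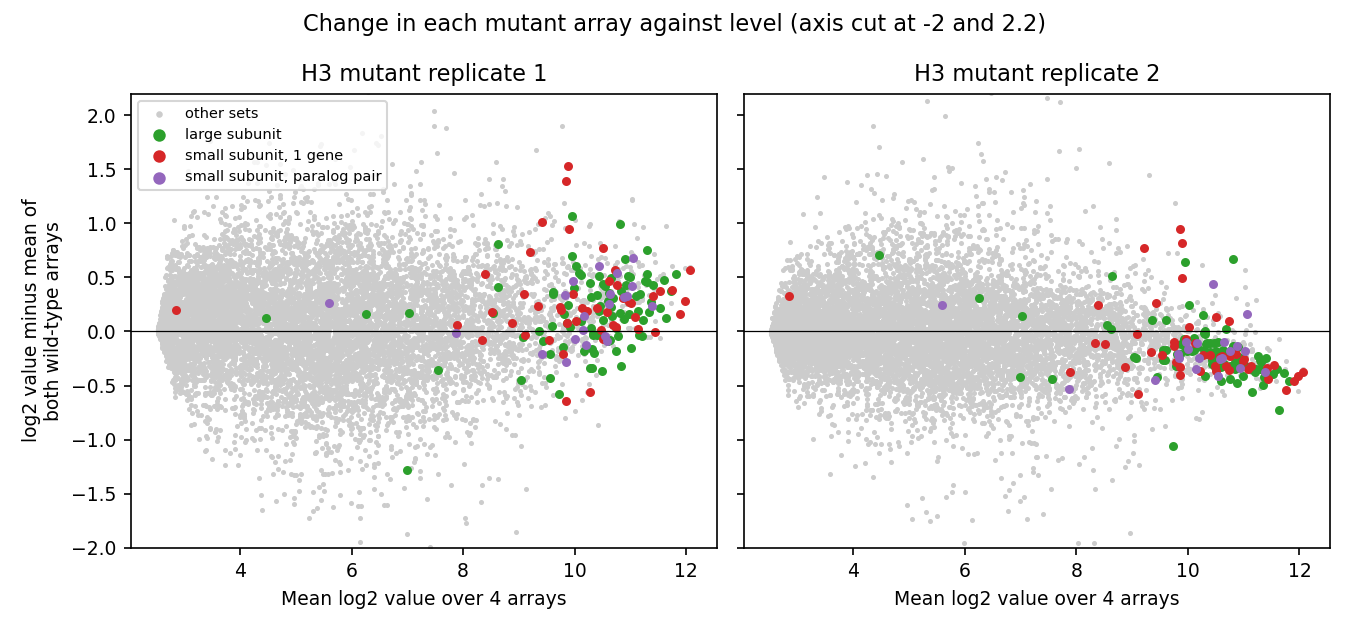
The log2 difference of each mutant array from the mean of both wild-type arrays is plotted against the mean log2 value over 4 arrays, with small-subunit, large-subunit and all other sets coloured apart. At the bright end the cloud bends up in mutant replicate 1 and down in mutant replicate 2, with medians of 0.25 and -0.18 in the brightest of the 20 bins, and the ribosomal protein sets lie within it.

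The wild-type arrays differed from each other in a run of probe set numbers that holds several members. The run was found after seeing the data, as consecutive windows of 250 numbers in which more than 3% of the sets above the median level differed by over 0.8 (log2) between these arrays. From 7500 to 8499, wild-type replicate 2 read that far below replicate 1 in 79 of 534 such sets (14.8%), against 10 of 3805 (0.263%) outside the run and 1.82% of all sets at any level. From 8500 to 8999 it read that far above replicate 1 in 21 of 287 sets (7.32%), against 0.0526% outside. Among sets of 1 gene above the median level, such low values made up 10.2% on chromosome XV and 14% on XVI. On any other chromosome they made up 1.26% or less, and the high ones were most frequent on XIV (13 of 256). Some control sets, which have no number, also read low, with LysX sets at -1.43 to -1.80, while ThrX sets lay at -0.18 to -0.30. The run holds 16 small-subunit sets, and 5 of the 13 numbered below 8500 had such a low value, while none of the 52 members outside the run did. These 5 were both sets of RPS10A, 1 of the 2 sets of RPS7A and 2 of the 3 sets for the RPS23 pair. The median log2 change of mutant minus wild type was 0.36 over the 16 sets in the run and -0.02 over the other 52. A low wild-type replicate 2 raises such a change by construction. This contrast is therefore in part fixed by how the run was chosen. The 4 highest changes among sets of 1 gene and the 2 highest among pair sets come from the run and are therefore given with and without wild-type replicate 2. Sets of RPS7B, RPS9A, RPS12, RPS15, RPS28A and of the RPS6, RPS9 and RPS30 pairs also lie there.

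**Figure D3:**
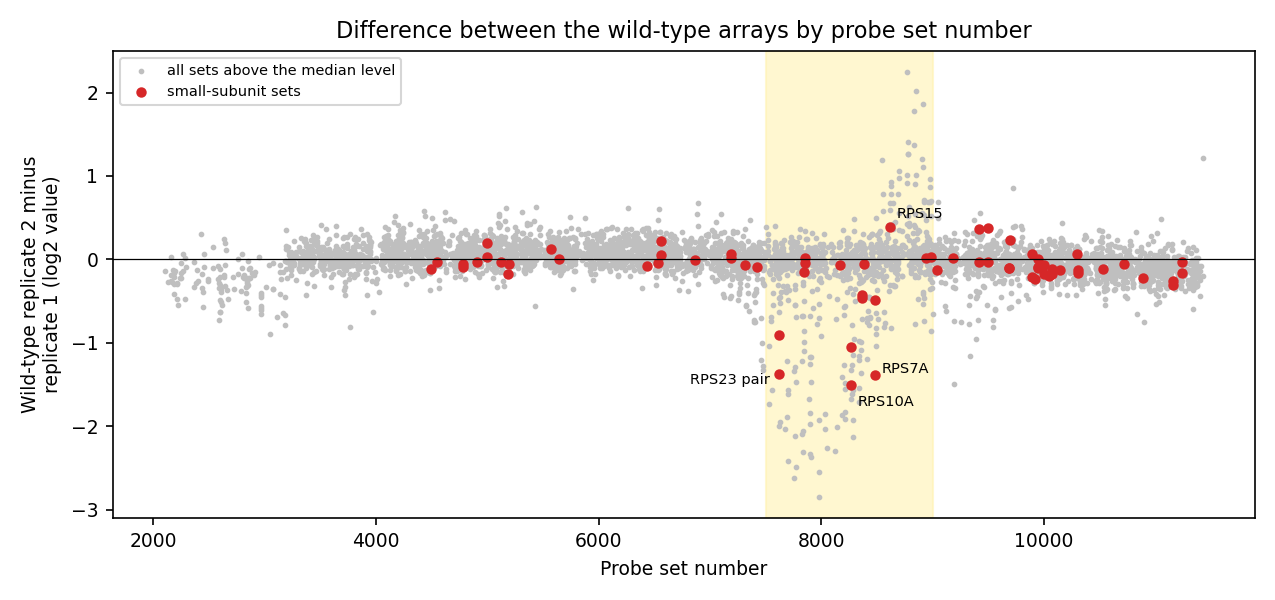
The log2 difference of wild-type replicate 2 minus replicate 1 is plotted against probe set number, for all sets above the median level (grey) and for the small-subunit sets (red), with shading over numbers 7500 to 8999. Low values gather in the left part of the shading and high ones in the right part, and RPS7A, RPS10A and the RPS23 pair are among the low ones.

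RPS7A, which encodes eS7 of the body and platform, had the highest log2 changes of all members. Its set 8478_at read 726 and 515 on wild-type replicates 1 and 2 and 1610.5 and 1184 in mutant replicates 1 and 2, a difference of 1.17 ± 0.27 in log2 (SE; limma adjusted p = 0.123). Its set 8479_at read 1014 and 385.5 on the wild-type arrays and 1815 and 1107 on the mutant arrays, a change of 1.17 ± 0.48 (limma adjusted p = 0.279). In both sets the mutant arrays lay above the wild-type arrays, and wild-type replicate 2 was the lowest. Without wild-type replicate 2 the changes were 0.92 and 0.48 (limma adjusted p = 0.575 and 0.918). Without wild-type replicate 1, which leaves the low array as the only control, 8479_at gave 1.86 and passed (limma adjusted p = 0.0113). The paralog RPS7B, whose sets 8936_at and 8981_at also lie in the run, read 1212 and 1227 on the wild-type arrays and 1394 and 947.5 on the mutant arrays by the brighter set. Its 2 log2 changes were -0.09 and -0.13, and its mutant arrays lay on either side of the wild-type arrays.

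RPS10A, for eS10 of the head, showed how far 1 array carries a value. Its set 8270_f_at read 1240 and 432.5 on the wild-type arrays and 1421 and 1037 on the mutant arrays, a difference of 0.72 ± 0.49 in log2 (SE; limma adjusted p = 0.488) that became -0.03 without wild-type replicate 2. Its set 8269_f_at read 648 and 310.5 on the wild-type arrays and 750 and 771 on the mutant arrays, a change of 0.75 ± 0.34 (limma adjusted p = 0.315) that became 0.23. Wild-type replicate 1 and the mutant arrays lay close together in both sets, and only wild-type replicate 2 stood apart. The paralog RPS10B read 646 and 630.1 on the wild-type arrays and 751 and 558 on the mutant arrays by its set 9414_f_at, a change of 0.02. Its other set, 9413_f_at, read 0.0893 to 2.52 and was the dimmest member, below the added 5.71 on each array.

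RPS28A (eS28), also in the run, read 334 and 247 on the wild-type arrays and 417.5 and 343 on the mutant arrays by its set 8368_i_at, a difference of 0.39 ± 0.21 in log2 (SE; limma adjusted p = 0.379). Its brighter set read 1460 and 1057 on the wild-type arrays and 2129 and 1366 on the mutant arrays, a change of 0.46 (limma adjusted p = 0.492), with mutant replicate 2 between the wild-type arrays. Without wild-type replicate 2 these changes were 0.18 and 0.22, and without mutant replicate 1 they were 0.25 and 0.14. The paralog RPS28B, outside the run, had changes of 0.12 and 0.16 in its 2 sets.

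RPS14B had the highest change among members outside the run. It encodes uS11 of the platform, and the Rps14 protein is known to repress RPS14B through its own transcript. The set read 550 and 538 on the wild-type arrays, 1100.5 in mutant replicate 1 and 652 in mutant replicate 2, a difference of 0.63 ± 0.27 in log2 (SE; limma adjusted p = 0.296). Both mutant arrays lay above both wild-type arrays, but by unequal amounts, with 1.01 for mutant replicate 1 and 0.26 for mutant replicate 2. The paralog RPS14A read 836 and 829.5 on the wild-type arrays and 977 and 780.4 on the mutant arrays, a change of 0.07, and showed the split of the bright sets.

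RPS27A and RPS20 had the lowest changes, and in these sets the mutant arrays ran against the split, with replicate 1 the lower one. RPS27A, for the zinc-binding protein eS27, read 1122 and 1080.1 on the wild-type arrays and 703 and 832 on the mutant arrays, a difference of -0.52 ± 0.20 in log2 (SE; limma adjusted p = 0.249, unadjusted p = 0.0386). Its paralog RPS27B read 2454.5 and 2256 on the wild-type arrays and 2394 and 1885 on the mutant arrays, a change of -0.15. RPS20, the single-copy gene of uS10 in the head and a protein that is ubiquitinated when ribosomes collide, read 1428 and 1391 on the wild-type arrays and 952 and 1212.5 on the mutant arrays. Its log2 change was -0.39 ± 0.23 (SE; limma adjusted p = 0.42). Both mutant arrays of RPS27A and of RPS20 lay below both wild-type arrays. With mutant replicate 1 left out the changes were -0.40 and -0.22, and with mutant replicate 2 left out -0.64 and -0.56. The lowest other sets of 1 gene were those of RPS26B, with 579 and 632 on the wild-type arrays and 593 and 404.5 on the mutant arrays, and of RPS0A, with 980.4 and 942 on the wild-type arrays and 831 and 789.6 on the mutant arrays. Their changes were -0.30 and -0.24, and only in RPS0A did the groups not overlap. The RPS26B change was -0.03 without mutant replicate 2 and -0.57 without mutant replicate 1.

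**Figure D4:**
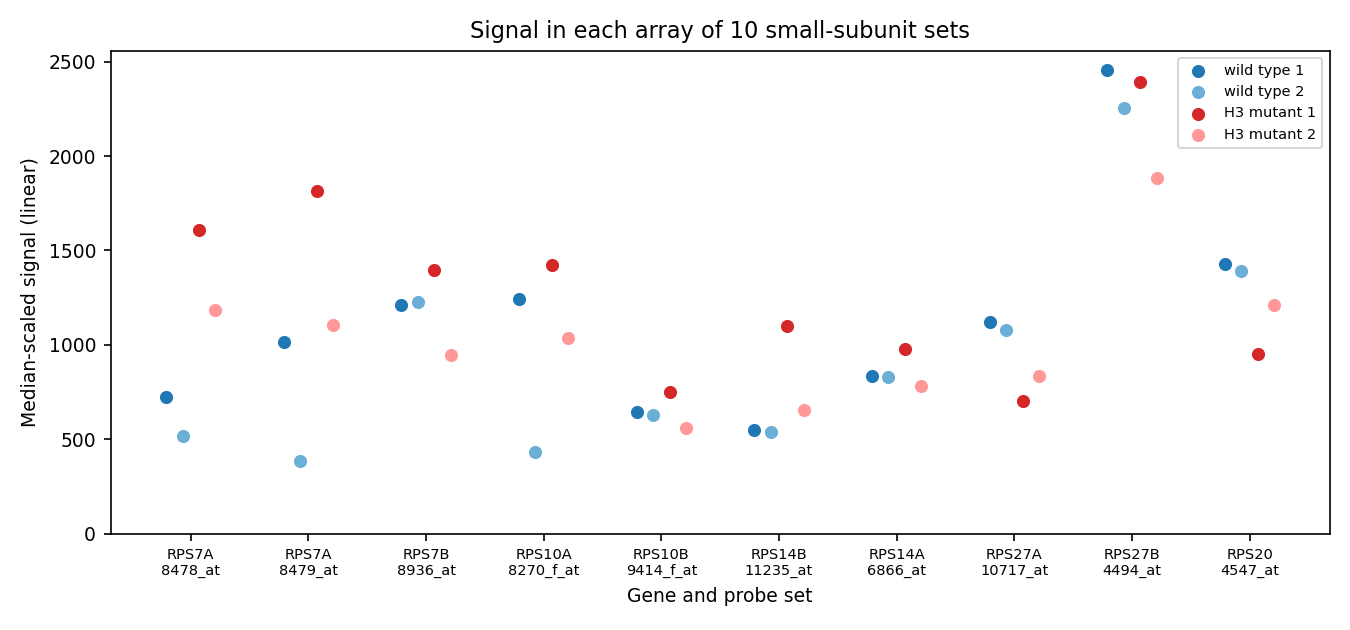
Scaled signals on a linear axis are shown for 10 small-subunit sets, with 1 point for each of the 4 arrays. Wild-type replicate 2 is the lowest array in the RPS7A and RPS10A sets and stands apart in the RPS10A set, both mutant arrays lie above wild type in the RPS7A and RPS14B sets, and both lie below it in RPS27A and RPS20.

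Setting a copy against its own paralog cancels any factor common to all sets of an array. A difference that moves with signal level need not cancel where the copies differ in brightness. The comparison covers the 13 pairs with a set for each gene, taking the brighter one where there were several. The log2 change of the A copy minus that of the B copy was under 0.3 in size in 8 of the 13 pairs. Among these, RPS9, RPS25 and RPS29 were compared by sets with the suffix f for both genes. Whether such sets read both copies was not tested. The 3 largest differences were 1.26 for RPS7, 0.70 for RPS10 and -0.57 for RPS14. For RPS7 the A minus B value, relative to its wild-type mean, was 0.70 and -0.70 on the wild-type arrays and 1.34 and 1.18 on the mutant arrays. For RPS10 it was 0.74 and -0.74 on the wild-type arrays and 0.72 and 0.69 on the mutant arrays, so that the mutant arrays lay within the wild-type range. For RPS14 the wild-type arrays lay at -0.01 and 0.01 and the mutant arrays at -0.78 and -0.35, and for RPS27 at -0.03 and 0.03 and at -0.67 and -0.08. In both pairs the groups did not overlap and the mutant arrays differed more from each other than the wild-type arrays did. The groups of RPS7, RPS28 and RPS9 did not overlap either, the last with a difference of only -0.10. For RPS22, by sets with mean signals of 4410 (A) and 1115 (B), mutant replicates 1 and 2 lay at 0.36 and -0.26. No test of these differences was run, and an exact permutation test of 2 against 2 arrays has a smallest two-sided p of 0.33.

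**Figure D5:**
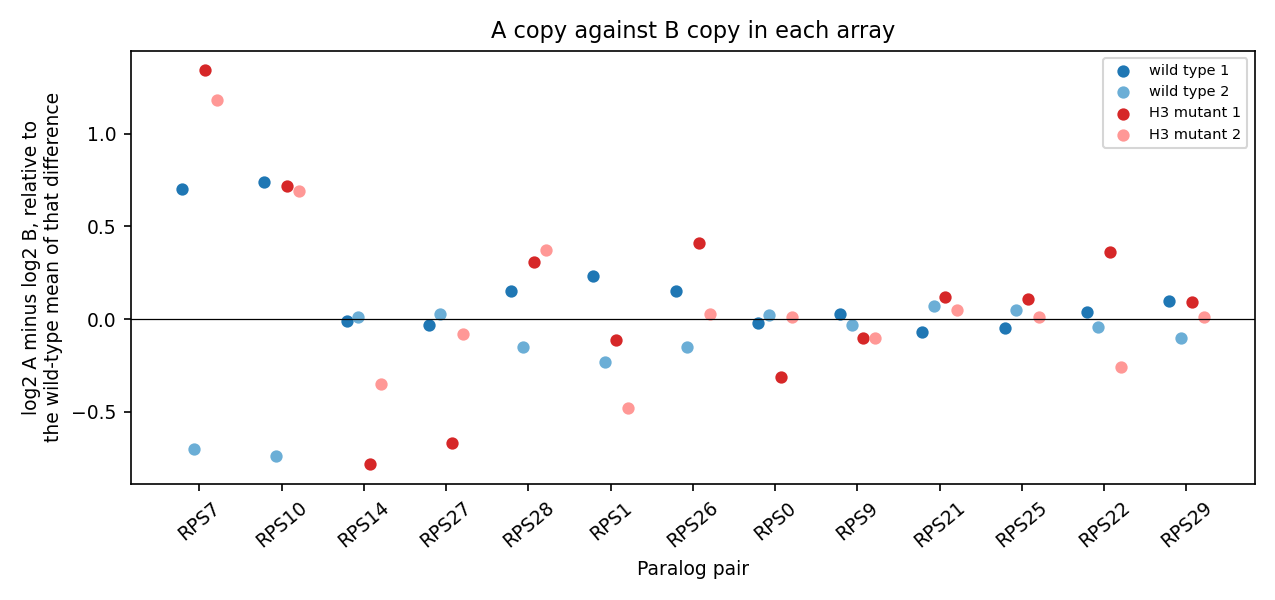
For each of the 13 pairs with a set for both genes, points show log2 of the A copy minus log2 of the B copy in the 4 arrays, relative to the wild-type mean of that difference. RPS7 and RPS10 have wild-type arrays far apart at 0.70 and -0.70 and at 0.74 and -0.74, and the other pairs have wild-type arrays within 0.23 of their mean.

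The 7 single-copy genes among the members had a median log2 change of 0.007, with a range of -0.39 to 0.33, beside -0.001 over the 61 sets of duplicated genes. RPS3 (uS3), at the mRNA entry, read 3075 and 2807 on the wild-type arrays and 3806 and 2365 on the mutant arrays. RPS2 (uS5), also near the mRNA entry, read 2039 and 1987 on the wild-type arrays and 2432 and 1668 on the mutant arrays. RPS13 (uS15), of the body, read 2097 and 1988 on the wild-type arrays and 2453 and 1716 on the mutant arrays. These 3 genes had changes of 0.03, 0.00 and 0.01, each the balance of a higher and a lower mutant array. RPS12 (eS12), of the head, read 1711 and 1630 on the wild-type arrays and 2251 and 1427 on the mutant arrays, with the same order and a change of 0.10. RPS31, which encodes eS31 fused to ubiquitin, read 1801.5 and 1645 on the wild-type arrays and 1795 and 1376 on the mutant arrays, a change of -0.13. RPS15 (uS19), of the head, read 1316 and 1731 on the wild-type arrays and 2237 and 1618 on the mutant arrays. Its change of 0.33 ± 0.29 (SE; limma adjusted p = 0.584) is from a set in the run, numbered 8612, and it became 0.53 without wild-type replicate 2, 0.14 without wild-type replicate 1, 0.10 without mutant replicate 1 and 0.57 without mutant replicate 2. There wild-type replicate 2 was the higher wild-type array and mutant replicate 2 lay between the wild-type arrays.

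By place in the subunit, the 26 sets of head proteins had a median log2 change of 0.056 and the 42 sets of body and platform proteins -0.016. Both groups held the split, with medians of 0.28 and -0.21 in mutant replicates 1 and 2 for the head and of 0.19 and -0.25 for the body and platform. The 31 sets of proteins shared with bacteria had a median change of 0.007 and the 37 sets of proteins found in eukaryotes or also archaea -0.005. No class had a set past the test.

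Pair sets cannot say which copy a value comes from, and for suffixed sets of 1 gene this was not tested. Several pair sets for the same pair differed from each other. RPS23 encodes uS12, which shapes the decoding centre. The set 7618_f_at for its pair read 1866 and 717 on the wild-type arrays and 1762.5 and 1573 on the mutant arrays, and 7619_s_at read 2508 and 1333 on the wild-type arrays and 2935 and 2049 on the mutant arrays. These were the highest pair-set changes, at 0.52 ± 0.45 and 0.42 ± 0.39 (SE; limma adjusted p = 0.585 and 0.608), and wild-type replicate 2 was the lowest array in both. Without that array they were -0.16 and -0.03. The third set for the pair, 4909_f_at, lies outside the run and read 1621 and 1592 on the wild-type arrays and 1557 and 1206 on the mutant arrays, a change of -0.23. RPS16 encodes uS9, whose tail reaches the P-site tRNA, and the pair has 4 sets with changes of -0.33, -0.17, 0.06 and 0.25. The lowest, 6558_i_at, read 704 and 818.5 on the wild-type arrays and 655 and 555 on the mutant arrays, and the highest, 9497_i_at, read 33.0 to 47.1 and was the second dimmest member. The set for RPS9, the uS4 protein near the mRNA entry, read 248 and 252 on the wild-type arrays and 248 and 171 on the mutant arrays, a change of -0.27. It was -0.01 without mutant replicate 2 and -0.53 without mutant replicate 1. The RPS30 pair (eS30) read 1652 and 1591 on the wild-type arrays and 2365 and 1426 on the mutant arrays by its set 8384_f_at, with a change of 0.18. The other pair sets ran from -0.26 for RPS21 to 0.18 for RPS6, whose protein eS6 is phosphorylated downstream of TORC1.

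Sets of the same gene gave like changes even where they differed in brightness. Of 13 genes with more than 1 set of their own, 12 had changes within 0.12 of each other. The exception was RPS10B, at 0.02 and 0.26, whose second set is the dimmest member. RPS25A, for eS25 of the head, gave -0.15 and -0.09, and RPS25B gave -0.22 and -0.16. The 3 sets of RPS22B gave 0.03, 0.14 and 0.05. Such likeness says little where changes are small, and 46 of the 68 members had a change under 0.2 in size. The RPS7A sets both gave 1.17, but 0.92 (8478_at) and 0.48 (8479_at) without wild-type replicate 2. Sets of the same gene read the same RNA on the same arrays and are not replicates.

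Lists of related genes, chosen by name, held no set past the test either. Their sets with an unadjusted p under 0.05 numbered 2 of 8 for regulators and 2 of 29 for nutrient kinases. They numbered 1 of 9 for bound proteins and 4 of 90 for the large subunit. Of all sets 18.1% reached that mark, and of the 334 bright sets that name no RPS or RPL gene 10 did. Among the 8 regulators of ribosomal protein genes 6 lay below 0, with a median log2 change of -0.156. HMO1, a high-mobility-group protein that binds ribosomal protein promoters and ribosomal DNA, read 342 and 386 on the wild-type arrays and 204 and 236 on the mutant arrays, a change of -0.71 ± 0.16 (SE; limma adjusted p = 0.123). Both mutant arrays of HMO1 lay below both wild-type arrays. CRF1, a corepressor of ribosomal protein genes, read 4.55 and 5.46 on the wild-type arrays and 13.7 and 7.38 on the mutant arrays. Its change was 0.57 (limma adjusted p = 0.257), at levels near the added 5.71. The activator SFP1 had -0.27 and the general regulatory factor ABF1 -0.23, while RAP1, FHL1 and IFH1 had -0.19, -0.04 and 0.12. Of 29 sets for 13 genes of TORC1, Sch9 and protein kinase A signalling, 24 lay above 0 with a median of 0.192, and many were dim sets of TOR1 and CYR1. The largest there was 0.73 for a CYR1 set, the adenylate cyclase gene, that read 0.179 to 4.66, and among genes with higher signals RAS2 had 0.34 (limma adjusted p = 0.454).

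Proteins bound to the small subunit and its dedicated chaperones had a median of -0.021 over 9 sets. TSR2, the carrier of eS26, read 33.2 and 24.4 on the wild-type arrays and 16.6 and 18.1 on the mutant arrays, a difference of -0.57 ± 0.20 in log2 (SE; limma adjusted p = 0.223). SLX9 had -0.29 and LTV1, of small-subunit assembly, -0.10. ASC1, the RACK1 protein of the head, had 0.03 and 0.09 in its 2 sets and the same split as its neighbours, with 2858 and 2589 on the wild-type arrays and 3567 and 2172 on the mutant arrays by the brighter set. The 5 stalk proteins of the large subunit ran from -0.10 for an RPP1B set to 0.42 for RPP2A, whose set lies in the run. The 13 sets of glycolysis and elongation genes, chosen as other abundant transcripts, had medians of 0.43 and -0.29 in mutant replicates 1 and 2, with ENO1 at 0.28, PGI1 at 0.21, GPM1 at -0.15 and YEF3 at -0.25 over both.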

How the data were processed

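The authors deposited 1 linear intensity per probe set and array. Per the submitters' processing notes these come from MAS5, whose settings and version are not given in the sources used here. Array medians as deposited were 37.3 and 38.4 (wild type) and 29.7 and 27.8 (mutant), and scaling set all 4 to their mean. The added value of 5.71 is the 20th percentile of all scaled signals. Genes come from the platform annotation, and all member symbols matched the reference table of assembly R64.

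The fit over all sets used R 4.3.3 and limma 3.58.1, with lmFit, then eBayes with an intensity trend, and two-sided p-values. It was tested on simulated data with independent noise for each set. These data held neither the split of the mutant arrays nor the run of differing wild-type values. Groups came from the sample titles. Only 2 arrays per group limit the precision. Members, lists and tests were chosen with earlier results of these data known. Sets named with values are the 4 highest and 4 lowest changes among sets of 1 gene, the 2 highest and 2 lowest among pair sets, the 3 brightest and 3 dimmest, the 4 largest differences between mutant arrays each way, single-copy genes, the 3 pairs that differ most, and up to 4 members of each list. Other sets named were added after their values were seen. From the list of large-subunit (RPL) genes no set was named with values. Alternatives changed the scaling, added value, sets, variance model and arrays.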

Additional observations from a re-analysis of the deposited data

How the results depend on the processing

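The call of no lower member held under all alternatives run, and the call of no higher member under all but 3. Cyclic loess called 1 (RPS7A, adjusted p = 0.0415). Leaving out each array gave 0 to 1, the 1 being RPS7A without wild-type replicate 1. The replicate block called 3 (both RPS7A sets, adjusted p = 0.00119 and 0.00123, and 1 RPS10A set, adjusted p = 0.0393). The differences between arrays of the same number correlated with r = -0.02 across all sets, and no label says that a number pairs cultures. Without any scaling, the median of all sets was -0.25 and the member medians were -0.40 for sets of 1 gene and -0.39 for pair sets, and -0.12 and -0.67 in mutant replicates 1 and 2. Leaving out each array gave medians of -0.23 to 0.22 for sets of 1 gene and -0.21 to 0.26 for pair sets, with mutant replicate 1 at 0.20 to 0.25 and mutant replicate 2 at -0.28 to -0.20. The medians in mutant replicates 1 and 2 were -0.04 and -0.04 with quantile normalization and 0.01 and -0.05 with cyclic loess, which by construction remove differences between whole arrays by rank or level. They were 0.07 and -0.08 when arrays were scaled to the large-subunit sets, an alternative chosen after seeing the data.

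Members whose groups did not overlap numbered 1 higher and 41 lower on the values as deposited (7.9% and 52.8% of all sets), 11 and 25 with quantile normalization (24.3% and 27.4%), 14 and 24 with cyclic loess (25.9% and 26.6%), and 12 and 21 of 68 with scaling to the large-subunit sets (27.9% and 22.8%). They numbered 3 higher and 2 lower over the 20 unsuffixed sets, and 3 higher and 11 lower over the 52 members outside the run of numbers. Beside both stand 26.5% and 24.1% of all sets. These are smaller groups, the latter chosen after seeing the data. Leaving out each array gave 7 to 46 higher and 12 to 54 lower, the 46 without mutant replicate 2 (49.3% of all sets) and the 54 without mutant replicate 1 (43.6%), where 3 arrays overlap less often by construction. All sets called numbered 40 higher and 616 lower as deposited, 2 and 2 with quantile normalization, 63 and 56 with cyclic loess, 54 and 59 above the median level, 60 and 49 with 1 set per gene, 46 and 45 with robust variances, 493 and 311 with the replicate block, 1 and 0 scaled to the large-subunit sets, 3 higher without controls and 6 higher without trend. Leaving out each array gave 0 to 214 higher and 0 to 75 lower, both 0 when either mutant array was left out. Beyond constructions named above, the cause was not tested. No pair set is unsuffixed, so that median has no such value. Fits without 1 array take the spread from the remaining group of 2.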
